A study of Rattus norvegicus with 2 samples.

Results

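Solute carriers other than 5 carriers of amines and choline were described in rat sympathetic neurons. The neurons were grown alone or taken from co-culture with myocytes, their target cells. The genes were selected by symbol, as every probe set of the array mapped to exactly 1 gene whose symbol has the solute carrier form (Slc, a family number, a letter and a member number). Slc6a2, Slc18a1, Slc18a2, Slc18a3 and Slc5a7, the amine and choline carriers of these neurons, were left out. The dopamine carrier Slc6a3 and the serotonin carrier Slc6a4 were not left out by the rule, but did not reach the signal filter described below. A gene was represented by its probe set of highest mean intensity and was kept if it reached the array median in at least 1 of the 2 arrays. By this rule 110 of 223 solute carrier genes on the array were kept, out of 6368 genes of all kinds that passed the same filter and 10411 genes measured. Because the filter used the measured intensities, the 8 genes that passed it only through neurons alone, all of them lower in co-culture, and the 4 that passed it only through co-culture (3 higher, 1 lower) were chosen partly by their difference. At the filter's edge, Slc20a2 (intensity 189 alone, 156 in co-culture), Slc38a5 (189 and 151) and Slc9a5 (190 and 163) were just inside, and Slc25a15 (179 and 154), Slc35f6 (172 and 167) and Slc41a1 (166 and 166) were just outside.

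The study used 2 Affymetrix Rat Expression Set 230A arrays, 1 hybridised with RNA from sympathetic neurons cultured without myocytes and 1 with RNA from neurons cultured with them. No treatment, genotype, strain, time in culture or animal age is stated for either group in the sources used here. Neurons were detached from their dishes with EDTA, a step meant to leave more adherent flat cells behind. The RNA is bulk RNA of the resulting suspension, in which markers of other cells were also bright. Summed intensities of 13 fibroblast and smooth muscle markers were 46435 alone and 50870 in co-culture, beside 46393 and 37616 for 12 sympathetic neuron markers. Sums over different probe sets do not measure shares of cells. The free-text description of the co-culture sample names neurons grown alone, which its title and source name contradict, and its group was taken from the latter.

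Solute carriers are membrane proteins that move amino acids, sugars, ions, metals, nucleotides and vitamins by facilitated diffusion, exchange or cotransport with another ion. Plasma membrane members set what a neuron can take up and keep its chloride, calcium and pH gradients. Members of family Slc25, grouped here by family number as mitochondrial carriers, mostly pass nucleotides, phosphate and metabolites across the mitochondrial inner membrane. The location of each member was not checked. Members of the endoplasmic reticulum and Golgi (mainly Slc35) supply substrates for glycosylation. Many work in pairs or with partner proteins, such as the light chains Slc7a5 and Slc7a8, which reach the surface bound to the heavy chain Slc3a2.

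Most solute carriers differed little between the arrays. Of the 110 genes, 95.5% lay within 1.5-fold, against 94.8% of all genes above the filter, and their log2 ratios of co-culture over alone ran from -0.89 to 0.81. As deposited, the 5 genes past 1.5-fold were Slc25a22, Slc24a3, Slc2a13 and Slc7a8, all lower in co-culture, and Slc39a1, which was higher. Against those 4 of 110 lower and 1 of 110 higher, 3.3% of all genes above the filter were at least 1.5-fold lower and 1.93% at least 1.5-fold higher. No solute carrier was 2-fold lower or higher, where 0.628% and 0.314% of all genes were. These shares are near the background, and read alone they mark nothing about the group.

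More of the 110 genes were lower than higher, by small amounts. In co-culture 81 (73.6%) were lower and 29 higher, against 52.7% lower among all genes above the filter, and the median log2 ratio was -0.11 against -0.01. Among the 98 genes above the median in both arrays, 72 were lower and 26 higher, with a median of -0.10. Of all genes above the median in both arrays, 53.0% were lower, with a median of -0.02. Without any filter, 130 of the 223 genes were lower, 55 were higher and 38 lay under the lowest intensity used (39.6) in both arrays, and the median was -0.06. Of all 10411 genes without a filter, 49.7% were lower, with a median of 0. How many genes were lower depended on the scaling of the arrays, from 62 of 110 with scaling to the array median, which raised each of these log2 ratios by 0.09, to 87 of 110 with scaling to the spiked control transcripts, which lowered each by 0.08. All genes above the filter moved with them, from 38.7% to 65.5% lower. Genes whose log2 ratio is nearer to 0 than these shifts have no settled direction.

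**Figure D1:**
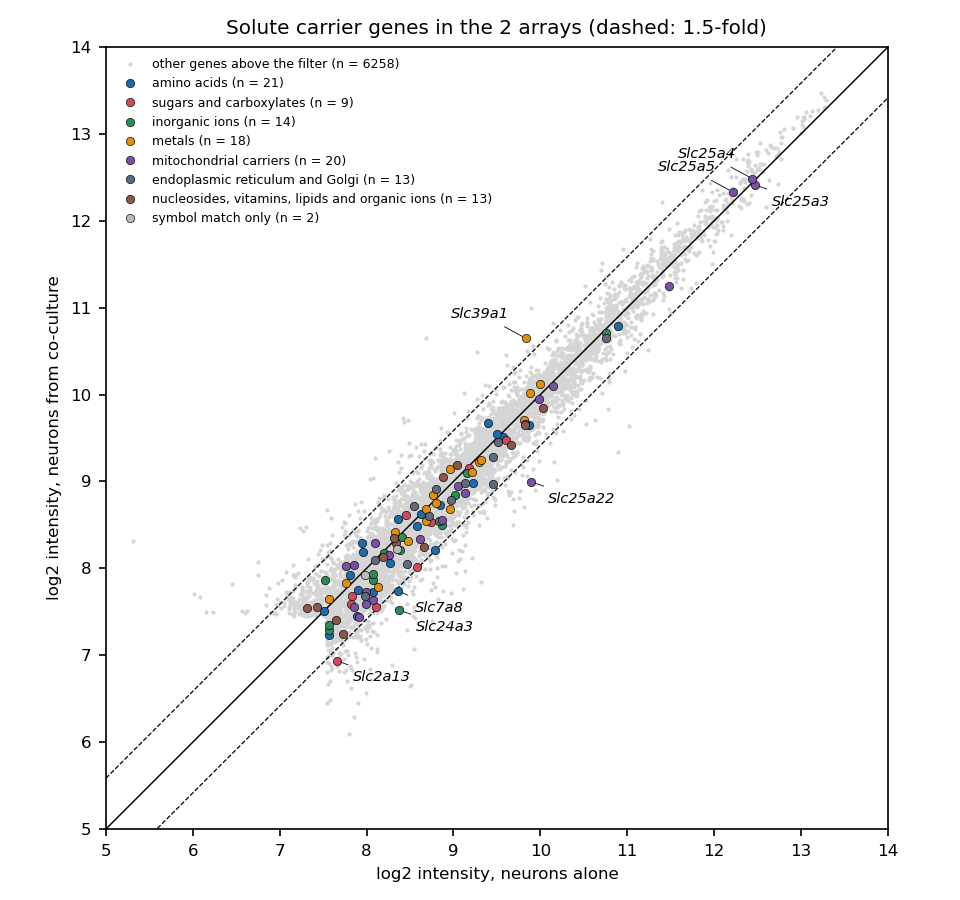
Log2 intensity of each gene in neurons alone (x axis) and in neurons from co-culture (y axis), 1 array each. Coloured points are the 110 solute carrier genes by what they carry, grey points the other 6258 genes above the filter, the solid line marks equal intensity and the dashed lines 1.5-fold. Slc25a22, Slc24a3, Slc2a13 and Slc7a8 lie below the lower dashed line and Slc39a1 above the upper one.

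There was 1 array per condition, so no difference was tested and no p-value is given. A scale for the technical spread came from 749 genes with at least 2 probe sets above the filter, whose probe sets disagreed with an SD of 0.29 (log2) for 1 probe set. With these genes split into equal bins by intensity, that SD was 0.34 in the dimmest bin, then 0.30 and 0.25, and 0.27 in the brightest. It holds disagreement between probes and transcript forms, but not differences between cultures. In bulk RNA, fewer cells of a type and less RNA per cell cannot be told apart.

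Markers of the cells in the suspension also differed between the arrays. All 12 sympathetic neuron markers on the array (Dbh, Gap43, Nefl, Nefm, Npy, Phox2a, Prph, Snap25, Stmn2, Th, Tubb3 and Uchl1) were well above the filter and lower in co-culture, with a median log2 ratio of -0.34 and a summed intensity of 46393 alone and 37616 in co-culture, and all 12 were lower under each of the 5 other scalings. Of 13 fibroblast and smooth muscle markers, all above the filter, 11 were higher in co-culture, with a median of 0.25 and sums of 46435 and 50870. The largest rises were in Mgp (1.96) and Dcn (1.09). The 2 lower were the smooth muscle genes Acta2 (4040 and 2913, -0.47) and Tagln (4094 and 3500, -0.23), while Cnn1, also of smooth muscle, was at 0.26. With quantile normalization 9 of these 13 were higher, and with the lowess correction 8. Of 10 cardiac myocyte markers 4 passed the filter, with sums over all 10 of 1257 and 1739, and the myosin genes Myh6, Myh7, Myl2 and Myl3, Ryr2 and Tnni3 were below it in both arrays. The sums were 1792 and 2113 for 6 Schwann and satellite cell markers, 5 of them above the filter, and 2206 and 1990 for 10 macrophage and leukocyte markers, 6 of them above it. None of 6 endothelial markers passed. Nppa, Nppb, Erbb3 and Gfap passed the filter through co-culture only, and Aif1 and Csf1r through neurons alone only. These markers are therefore counted partly because of their difference. No marker was listed at 0 in either array, which does not show that each was present. Ryr2, Tnni3, Kdr and Pecam1 were below the lowest intensity used (39.6) in both arrays. The part of these cell differences in the solute carrier values was not tested.

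Among metal carriers the largest difference was in Slc39a1, a zinc importer of the plasma membrane, whose probe set read 913 in neurons alone and 1603 in co-culture. The log2 ratio was 0.81, or 1.76-fold higher, where the SD of 1 probe set at that intensity was 0.25. It is the only probe set for the gene, so no second measurement stands beside it. The promoter of the gene is shown because zinc-responsive genes often carry metal response elements (bound by Mtf1), and the shared core of that element was searched in it. It is the 250 bases before the RefSeq start in GRCr8, at chr2:178000869-178001118 on the plus strand, with capitals at each match on either strand to the core TGCNCNC or to the GC box GGGCGG, which do not overlap.
Slc39a1: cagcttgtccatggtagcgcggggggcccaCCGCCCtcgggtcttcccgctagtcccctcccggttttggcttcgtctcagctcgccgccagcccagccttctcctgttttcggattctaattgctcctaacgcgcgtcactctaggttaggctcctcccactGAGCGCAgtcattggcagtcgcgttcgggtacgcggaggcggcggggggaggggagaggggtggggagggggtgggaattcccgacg
It holds 1 core and 1 GC box, and 66% of its bases are G or C. The core is short and common, being present in 43.9% of 27457 rat promoters of this length, in 53 of the 92 solute carrier promoters that could be matched and in 8 of 15 for metal carriers. The 27457 promoters were taken without the intensity filter that the 92 passed, so the shares compare unlike sets. A match describes only letters in this window.

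The other metal carriers lay close to equality, and no direction holds for the group. Of the 18 kept, 10 were lower and 8 higher, with a median of -0.02 that turned to 0.06 with median scaling, to 0.03 with quantile normalization, to 0.02 with the lowess correction and to 0.00 with trimmed mean scaling. The 6 zinc importers of family Slc39 split evenly, 3 lower and 3 higher. Slc39a7, which releases zinc from the endoplasmic reticulum, read 944 and 1040 (0.14), and Slc39a14, which imports zinc and iron, 497 and 566 (0.19). Among the 6 zinc efflux carriers of family Slc30, 4 had log2 ratios of 0.07 to 0.09 and Slc30a3, which fills synaptic vesicles with zinc and was named after its values were seen, read 280 and 221 (-0.34). Slc30a1, the plasma membrane zinc exporter, was below the filter at 127 and 89.1, as was the iron exporter Slc40a1 at 125 and 111, with another probe set at 139 and 79.8 (-0.80). Slc31a1, the copper importer, read 1020 and 1110 (0.12) on the probe set that stood for it, but its other probe sets gave 0.29 and -0.47, so its direction is unsettled. Apart from the 4 carriers singled out by the naming rule, the remaining 14 ran from -0.34 to 0.09, and 10 of them were lower.

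Of 12 genes for iron, zinc and copper handling on the array, 7 passed the filter, 5 lower and 2 higher, with a median of -0.11. One of the lower genes, Ireb2 (190 and 166), passed through neurons alone only, so it is counted partly because of its difference. Hamp, which encodes hepcidin, read 373 and 182 (-1.03). Mt2A, a metallothionein induced by zinc through Mtf1, read 596 and 479 (-0.31), and Mtf1 itself 265 and 279 (0.08). The transferrin receptor Tfrc read 1745 and 1611 (-0.11). The higher reading of Slc39a1 stood beside a lower reading of Mt2A and a near-equal one of Mtf1.

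Mitochondrial carriers held the largest difference downward. Slc25a22, which imports glutamate with a proton into the matrix, read 949 in neurons alone and 511 in co-culture, a log2 ratio of -0.89 or 1.86-fold lower, with an SD of 0.30 for 1 probe set at that intensity. Like Slc39a1 it rests on 1 probe set. Its promoter is shown beside that of Slc39a1 for the same 5 motifs. It lies before the RefSeq start in GRCr8 at chr1:205965878-205966127, given on the minus strand of the gene, with capitals as above.
Slc25a22: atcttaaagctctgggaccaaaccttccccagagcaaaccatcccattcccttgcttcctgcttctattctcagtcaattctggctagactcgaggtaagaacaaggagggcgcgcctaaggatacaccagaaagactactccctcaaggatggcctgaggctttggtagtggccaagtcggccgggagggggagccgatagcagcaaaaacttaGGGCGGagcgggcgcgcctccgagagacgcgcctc
It holds no core of the metal response element and 1 GC box, and 56.8% of its bases are G or C. The GC box stood in 32.4% of all promoters and in 60 of the 92 matched here. The site of the respiratory factor NRF1 was in neither promoter and in 4.17% of all. It was in 6 of the 92, with 3 of 15 for metal carriers and none of 18 for mitochondrial carriers. For so rare a site, 18 promoters are too few to show a lack. The E-box CACGTG was in 5.79% of all promoters and 13 of the 92, and in neither of those shown. All promoters were again taken without the intensity filter that the 92 passed.

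Of 20 mitochondrial carriers kept, 15 were lower and 5 higher, with a median of -0.17. The number lower was 12 with median scaling and 17 with quantile normalization. The carriers that supply ATP synthesis were near equality as deposited. The phosphate carrier Slc25a3 read 5686 and 5458 (-0.06), and the ADP/ATP exchangers Slc25a4 and Slc25a5 read 5553 and 5730 (0.05) and 4756 and 5151 (0.12). Quantile normalization turned both exchangers below 0, to -0.08 and -0.02, and Slc25a4 was at -0.07 with the lowess correction and -0.04 with the spiked controls. Slc25a3 was at -0.20 with quantile normalization, -0.17 with the lowess correction and 0.03 with median scaling. The aspartate/glutamate exchangers of the malate-aspartate shuttle went opposite ways, Slc25a12 at 466 and 376 (-0.31) and Slc25a13 at 232 and 262 (0.18), both named after their values were seen. The citrate carrier Slc25a1 read 2863 and 2427 (-0.24), and the glycine carrier Slc25a38 read 270 and 199 (-0.44). On the other side, the carnitine-acylcarnitine carrier Slc25a20 read 273 and 313 (0.20) and the ATP-magnesium/phosphate carrier Slc25a25 217 and 260 (0.26). These 4 carriers were also named after their values were seen. Besides those named by rule, the 16 other carriers ran from -0.47 to 0.26, 13 of them lower.

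The channels and import receptors of the mitochondrial membranes were more even. Of 6 above the filter 2 were lower and 4 higher, with a median of 0.04 that turned negative with the spiked controls, quantile normalization and the lowess correction. The outer membrane channels Vdac1, Vdac2 and Vdac3 had log2 ratios of 0.05, -0.04 and 0.11, the import receptor Tomm22 0.29, and the uncoupling protein Ucp2, itself of the carrier family by structure but outside the symbol rule, -0.32.

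**Figure D2:**
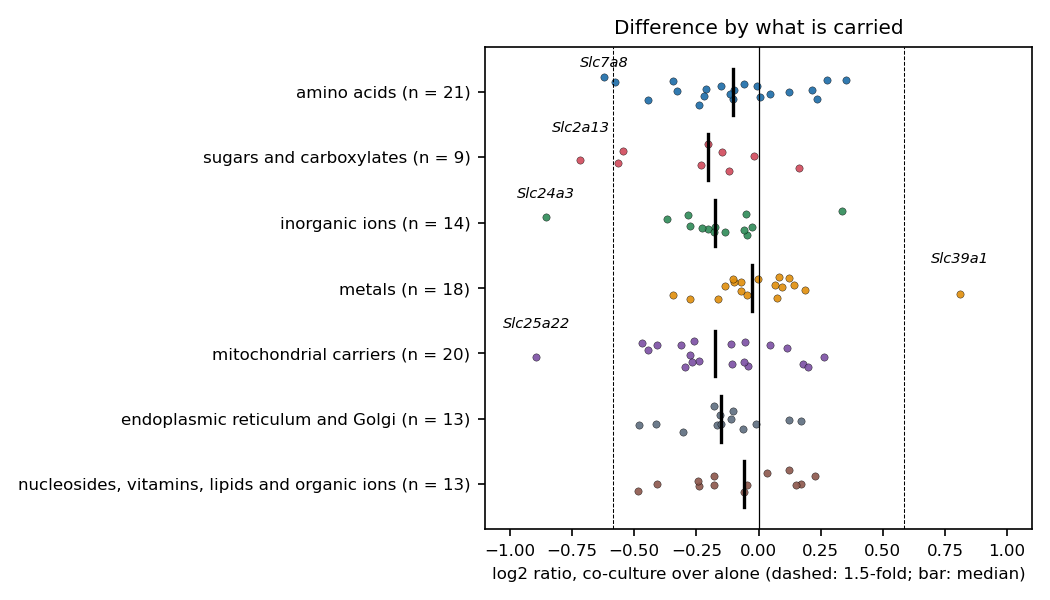
Log2 ratio of co-culture over alone (x axis) for each solute carrier gene, in rows by what is carried. Each point is 1 gene, black bars are row medians and dashed lines mark 1.5-fold. Row medians lie between -0.20 (sugars and carboxylates) and -0.02 (metals), and 5 genes lie past 1.5-fold.

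Inorganic ion carriers were mostly a little lower. Of 14 kept, 13 were lower and 1 higher, with a median of -0.18, but 9 of 14 were lower with median scaling. Slc24a3, a potassium-dependent sodium/calcium exchanger that extrudes calcium, read 332 alone and 184 in co-culture, 1.81-fold lower at a log2 ratio of -0.86, with an SD of 0.34 for 1 probe set. A dimmer second probe set for it, below the filter, read 111 and 73.9 (-0.59), also lower. Slc8a1, the sodium/calcium exchanger that does not move potassium, read 519 and 459 (-0.18).

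The cation-chloride cotransporters of family Slc12 went both ways. Slc12a2 (NKCC1), which loads chloride and keeps it high in peripheral neurons, read 469 and 363 (-0.37). The potassium-chloride exporter Slc12a4 (KCC1), named after its values were seen, read 184 and 233 (0.33) and passed the filter through co-culture only, while another exporter named in that way, Slc12a7 (KCC4), had a log2 ratio of -0.17. The neuronal exporter Slc12a5 (KCC2) was below the filter in both arrays at 175 and 123. The kinases that regulate these carriers, Wnk1, Oxsr1 and Stk39, had log2 ratios of -0.33, -0.29 and -0.06, and with the chloride/proton exchanger Clcn3 at -0.06 all 4 genes of the chloride and pH list above the filter were lower, 2 of 4 with median scaling. The phosphate importer Slc20a1 read 1729 and 1669 (-0.05) and the chloride/bicarbonate exchanger Slc4a2 570 and 548 (-0.06), both within the range that scaling turns. The 9 ion carriers not named by rule ran from -0.28 to 0.33, 8 of them lower.

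The sodium gradient that drives many of these carriers comes from the sodium pump. All 5 of its subunit and regulator genes above the filter were lower, with a median of -0.15, though 3 of 5 with median scaling. The beta subunit Atp1b1 read 3888 and 3512 (-0.15) and the regulator Fxyd1 304 and 256 (-0.25), while Fxyd5 was at -0.16, Fxyd6 at -0.06 and Atp1b3 at -0.04.

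**Figure D3:**
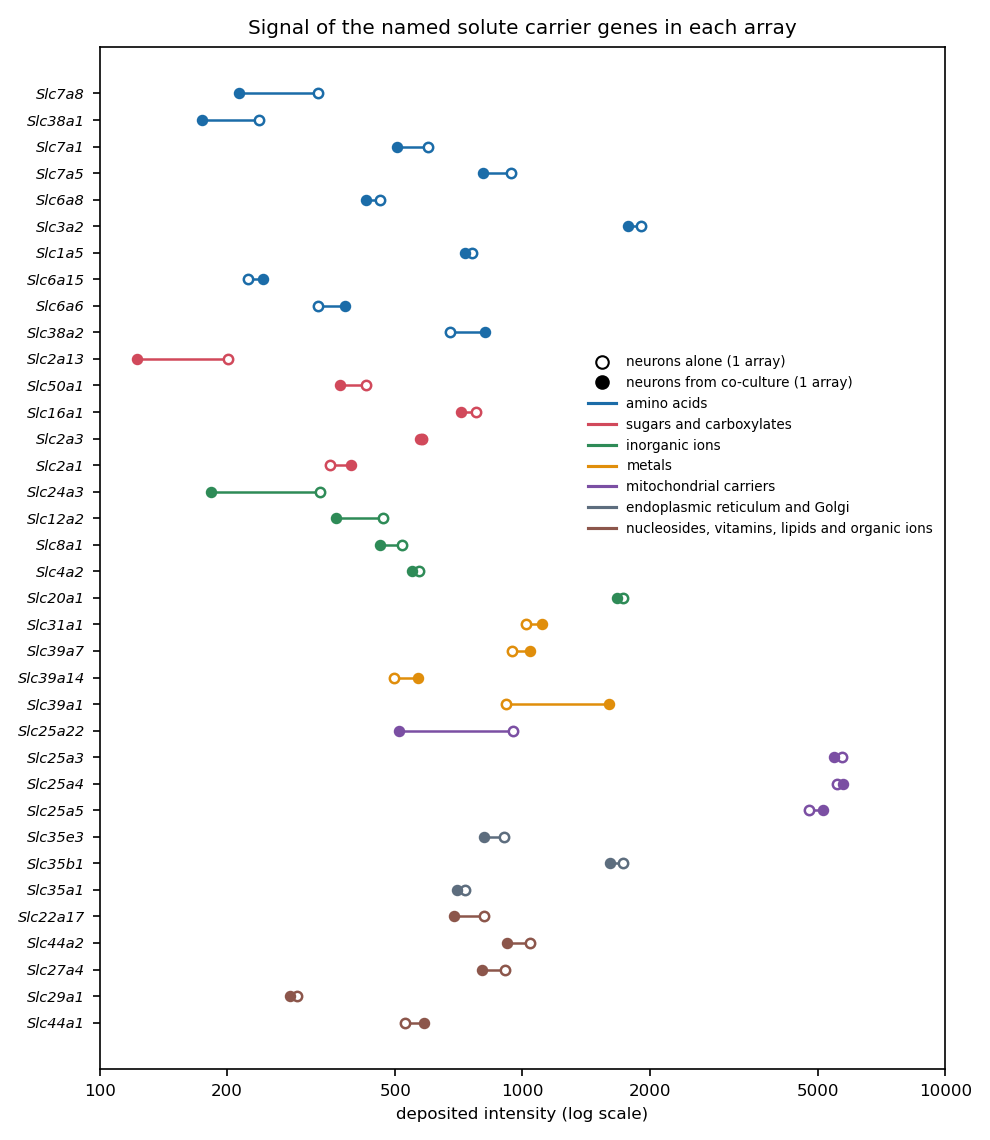
Deposited intensity (x axis, log scale) of the 36 solute carrier genes singled out by function, size of difference or intensity, with the 2 arrays joined by a line, open circles for neurons alone and filled circles for neurons from co-culture. Colours give what is carried. Slc25a22, Slc24a3, Slc2a13 and Slc7a8 have long lines with the filled circle on the left, and Slc39a1 has one with it on the right.

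Amino acid carriers ran from -0.62 for an exchanger light chain to 0.35 for a lysosomal peptide carrier. Of 21 kept, 14 were lower and 7 higher, with a median of -0.10, and 12 were lower with median scaling. Slc7a8 (LAT2), a light chain for neutral amino acids, read 329 alone and 214 in co-culture, 1.54-fold lower at -0.62 with an SD of 0.34 for its 1 probe set. It fell inside 1.5-fold with quantile normalization (-0.54), median scaling (-0.54), the lowess correction (-0.55) and a pseudocount (-0.54). Slc7a5 (LAT1), which exchanges large neutral amino acids, read 938 and 805 (-0.22), and the heavy chain of both, Slc3a2, read 1907 and 1774 (-0.10). The difference in Slc3a2 was smaller than that in Slc7a8. Slc3a2 also rests on 1 probe set, with an SD of 0.27 at its intensity, and the gap between the 2 genes was not tested.

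Slc3a1, the heavy chain of the cystine carrier, was just inside 1.5-fold at 443 and 297 (-0.58), named after its values were seen. The arginine and lysine carrier Slc7a1 read 596 and 505 (-0.24), and its second probe set above the filter gave -0.15. Slc1a5, an exchanger of glutamine and other neutral amino acids, read 759 and 730 (-0.06). Family Slc7 as a whole had 5 of 6 genes lower, with Slc7a7, named after its values were seen, at -0.01 and so turned by scaling.

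Of the sodium-coupled glutamine carriers, Slc38a1, which takes up glutamine in neurons, read 238 and 175 (-0.44). It passed the filter through neurons alone only, and its second probe set above the filter read 178 and 183 (0.04), so its direction is unsettled. Slc38a2, which is induced when amino acids are short, read 675 and 817 (0.28). Family Slc6 without the noradrenaline carrier had 3 of 4 genes higher: the taurine carrier Slc6a6 at 328 and 381 (0.22), the neutral amino acid carrier Slc6a15 at 224 and 244 (0.12) and the glycine carrier Slc6a9 at 249 and 293 (0.23). The creatine carrier Slc6a8 was the one lower, at 461 and 426 (-0.12), with 0.00 on its second probe set. Slc6a6 had a dimmer probe set at -0.52 and Slc6a9 had dimmer ones at 0.63 and -0.56, so these directions rest on the probe set chosen, and Slc6a9 was named after its values were seen. Slc15a4, a lysosomal histidine and peptide carrier named after its values were seen, read 246 and 314 (0.35). The 11 amino acid carriers not named by rule ran from -0.58 to 0.35, 7 of them lower.

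Glutamate carriers of the plasma membrane and of synaptic vesicles did not reach the filter. Slc1a1 read 130 and 126 on the probe set that stood for it and 162 and 62.7 (-1.37) on its other one. Slc1a3 read 162 and 137, with -0.75 and 0.32 on its other probe sets, and Slc1a2 read 28.2 and 17.7. The vesicular carriers Slc17a6, Slc17a7 and Slc32a1 (the last for GABA and glycine) read 14.95 and 11.7, 101 and 76.8, and 9.57 and 18.7. Of these, Slc1a2, Slc17a6 and Slc32a1 were below the lowest intensity used in both arrays, and no ratio is given. Slc1a4 and Slc7a11 were not analysed here.

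Genes of the amino acid response, the program run by the factor Atf4 when amino acids are short and of which Slc38a2, Slc3a2, Slc7a5 and Slc7a1 are known targets, were higher more often than lower. All 15 on the array passed the filter, 12 were higher and 3 lower, where 47.3% of all genes above the filter were higher. Atf3 and Trib3 passed the filter through co-culture only, so they are counted partly because of their difference. With quantile normalization, the lowess correction or the spiked controls, 4 of the 15 were lower. The median was 0.15, from 0.07 with the spiked controls to 0.23 with median scaling. Cebpb read 337 and 634 (0.91) and Atf3 160 and 276 (0.78), the 2 of 15 past 1.5-fold, beside 1.93% of all genes that were as much higher. Asns, a classic target, read 761 and 849 (0.16), Trib3 141 and 177 (0.33) and Atf4 2875 and 2976 (0.05). The 3 lower genes were Herpud1 at -0.25, Phgdh at -0.21 and Atf5 at -0.20. Of the carriers among the targets, Slc38a2 was higher and Slc3a2, Slc7a5 and Slc7a1 were lower, with Slc3a2 close to the shift between scalings. The element searched for this response, TGATGNAA, was in 3.27% of all promoters, taken without the intensity filter. It was in 4 of the 92 matched solute carrier promoters and in 2 of 17 for amino acid carriers.

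In the neighbouring metabolic lists the differences were small. Of 9 glutathione and cystine genes 6 were lower and 3 higher, with a median of -0.06 that turned to 0.02 with median scaling; the rate-limiting subunit Gclc read 347 and 251 (-0.47) and Gss 393 and 475 (0.28). All 4 genes of glutamate and glutamine metabolism above the filter were lower, but 1 of 4 with median scaling, and glutamine synthetase, Glul, at 802 and 614 (-0.39), was the one not near 0.

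Sugar and carboxylate carriers were lower in 8 of 9, with a median of -0.20, and in 7 of 9 with median scaling. Slc2a13, which takes up myo-inositol with a proton, read 202 alone and 123 in co-culture, 1.64-fold lower at -0.72 with an SD of 0.34. It passed the filter through neurons alone only, and its second probe set, below the filter, read 137 and 125 (-0.13), so the size of the difference depends on the probe set. The glucose carrier Slc2a1 (GLUT1), expressed by most cells, read 350 and 392 (0.16). Slc2a3 (GLUT3), the main neuronal glucose carrier, read 580 and 572 (-0.02) on the probe set that stood for it and 334 and 210 (-0.67) on a second one above the filter. The first of these is near 0 and turned to 0.07 with median scaling, and the second lay at -0.65 from the first. The SD of 1 probe set at that intensity was 0.30, and a gap between 2 probe sets has a wider SD than that.

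All 3 monocarboxylate carriers kept, which move lactate and pyruvate, were lower. Slc16a1 (MCT1) read 776 and 714 (-0.12), the neuronal Slc16a7 (MCT2) 227 and 206 (-0.15), and Slc16a3 (MCT4), typical of glycolytic cells, 275 and 189 (-0.54), the last 2 named after their values were seen. Embigin, Emb, a partner that brings some of them to the surface, read 507 and 290 (-0.81), while basigin, Bsg, the partner of Slc16a1 and Slc16a3, read 1879 and 1990 (0.08). Slc5a6, the carrier of biotin and pantothenate grouped here by its family and named after its values were seen, was at 384 and 259 (-0.57), and Slc50a1, a sugar carrier, at 427 and 371 (-0.20). Of 7 genes of glucose and lactate use, 4 were lower and 3 higher, among them the lactate dehydrogenases Ldha (5321 and 6084, 0.19) and Ldhb (741 and 839, 0.18) and Txnip (1731 and 2199, 0.35), an inhibitor of glucose uptake.

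Carriers of the endoplasmic reticulum and Golgi were lower in 11 of 13, with a median of -0.15, and in 9 of 13 with median scaling. The family Slc35 had 9 of 11 lower. Slc35b1, the ATP/ADP exchanger of the endoplasmic reticulum, read 1726 and 1610 (-0.10) and gave -0.30 on its second probe set. Slc35a1, the CMP-sialic acid carrier, read 732 and 701 (-0.06) but 0.15 and 0.09 on its other probe sets above the filter, and Slc35e3, a carrier of unassigned substrate, 903 and 810 (-0.16). Slc35a4 (703 and 503, -0.48) and the glucose 6-phosphate carrier Slc37a4 (354 and 266, -0.41) were the lowest in the group, named after their values were seen. The 10 carriers not named by rule ran from -0.48 to 0.17, 8 of them lower.

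Carriers of nucleosides, vitamins, lipids and organic ions had no settled direction. Of 13 kept, 8 were lower and 5 higher, with a median of -0.06 that turned to 0.03 with median scaling, to 0.02 with quantile normalization and to 0.01 with the lowess correction. The nucleoside carrier Slc29a1 (ENT1) read 293 and 281 (-0.06), the fatty acid carrier Slc27a4 907 and 800 (-0.18), the lipocalin-2 receptor Slc22a17 811 and 688 (-0.24) and the choline-like carrier Slc44a2 1044 and 921 (-0.18). Slc44a1, the other choline-like carrier kept, read 527 and 586 (0.15), with other probe sets at 0.12 and -0.49. The riboflavin carrier Slc52a2 (212 and 152, -0.48) was the lowest of the group, and the organic anion carrier Slc22a8 (159 and 186, 0.23) the highest. Both passed the filter through 1 array only and were named after their values were seen.

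Where a gene had several probe sets, they often disagreed about sign. Of the 110 genes 21 had several and 89 had 1, and 9 genes had a further probe set above the filter. Of the 12 such probe sets, 6 had the sign of the one that stood for the gene. Slc31a1 and Slc44a1 were the 2 genes with a further probe set above the filter of opposite sign and more than 0.5 away. Over the 9 genes, the second brightest probe set had a median log2 ratio of -0.15, with 5 of 9 lower.

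**Figure D4:**
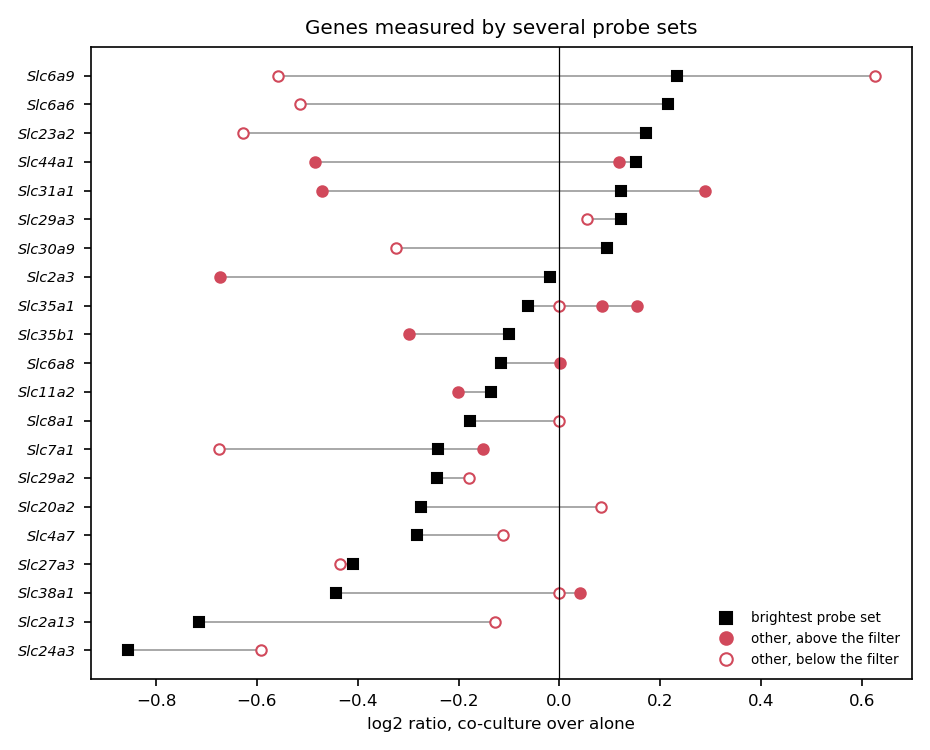
Log2 ratio of co-culture over alone (x axis) for every probe set of the 21 solute carrier genes with several. Black squares mark the probe set of highest mean intensity, which stood for the gene, filled circles the others above the filter and open circles those below it. The Slc2a3 circle at -0.67, the Slc31a1 circle at -0.47 and the Slc44a1 circle at -0.49 lie far left of their squares.

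The 5 carriers left out by the selection are given for comparison. Slc6a2, which recaptures noradrenaline, read 552 and 217 (-1.34), the vesicular monoamine carrier Slc18a2 990 and 797 (-0.31) and the choline carrier Slc5a7 1101 and 1047 (-0.07). The other two did not reach the filter, the vesicular monoamine carrier Slc18a1 at 161 and 98.6 (-0.71) and the vesicular acetylcholine carrier Slc18a3, which was higher in co-culture, at 25.4 and 116 (1.55 after the floor). None of the 110 solute carriers above the filter differed as much as Slc6a2. Slc18a3 is not comparable with these 110, because it was below the filter. Among the solute carriers below it, Slc37a1 was at -1.86. Slc7a6os (327 and 299, -0.13) and Slc4a1ap (254 and 243, -0.07) match the symbol rule but are genes named after a neighbour and a partner of a carrier, not carriers, and removing them left 79 of 108 genes lower.

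**Figure D5:**
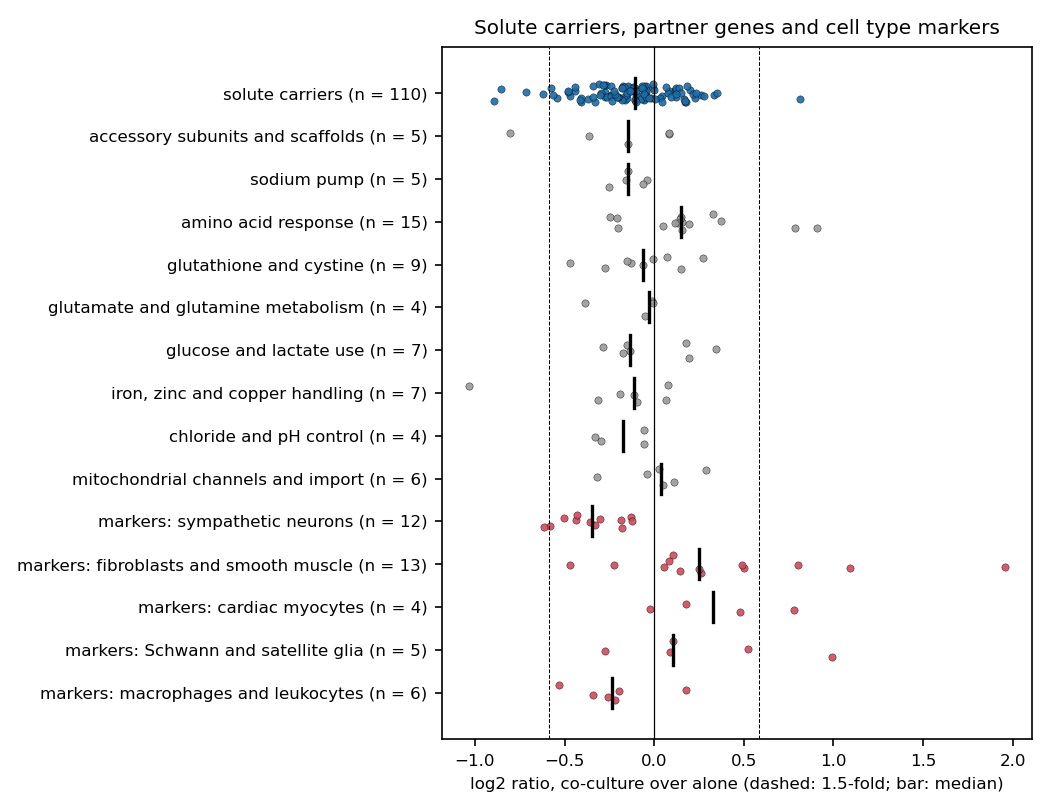
Log2 ratio of co-culture over alone (x axis) for the 110 solute carrier genes (blue), genes that work with them (grey) and cell type markers (red), each point 1 gene above the filter. Black bars are medians and dashed lines mark 1.5-fold. The sympathetic neuron markers all lie left of 0 with a median of -0.34, the solute carriers have a median of -0.11 and the fibroblast and smooth muscle markers 0.25. Among markers and partner genes, Nppa, Nppb, Erbb3, Gfap, Aif1, Csf1r, Ireb2, Atf3 and Trib3 passed the filter through 1 array only.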

How the data were processed

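RNA of 2 samples, neurons alone and neurons from co-culture, was measured on 1 array each. Each probe set has 1 deposited linear intensity per array. The authors' design text names dChip 1.3 for quantification, while the submitters' processing notes list MAS5; the tool behind the deposited intensity and its scaling target were not given in the sources used here.

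The intensities were used as deposited. Control probe sets (57 of 15923) were left out, values below the pooled 20th percentile (39.6) were set to it, and log2 of co-culture minus log2 of alone was computed. No solute carrier above the filter was below that value in either array. The filter kept genes at or above the array median (186 alone, 175 in co-culture) in at least 1 array. Of 15866 probe sets, 12783 had 1 symbol, 312 several and 2771 none in the platform annotation. Symbols were updated through gene identifiers to the RefSeq table of GRCr8, where all 223 solute carrier genes matched. The Actb and Gapdh control probe sets for the 3' end differed by 0.06 and 0.03 (log2). With 1 array per condition no test was made, and the number of arrays limits the precision. Ratios were computed with Python 3.11.15, pandas 2.3.3 and statsmodels 0.14.6, and the scripts were tested on simulated data.

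The genes described, their groups and the partner and marker lists were chosen with earlier results of these data known. Genes were named if they were on a list fixed by function, at least 1.5-fold apart, among the 3 of highest mean log2 intensity in their group, or had a second probe set above the filter of opposite sign more than 0.5 away. Other names are marked where they occur, and genes of the partner and marker lists were named from those lists. The alternatives were 5 scalings, other floors, filters and rules for probe sets, and removal of genes that are not carriers.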

Additional observations from a re-analysis of the deposited data

How the results depend on the processing

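Among 18 alternatives, the 5 solute carriers past 1.5-fold as deposited had these ranges: Slc25a22 from -0.97 to -0.81, Slc24a3 from -0.94 to -0.72, Slc2a13 from -0.80 to -0.42, Slc7a8 from -0.70 to -0.54 and Slc39a1 from 0.73 to 0.90. Their direction could hardly have changed. A filter does not alter the value of a gene, and scaling by a single factor moved these ratios by at most 0.09. Slc25a22, Slc7a8 and Slc39a1 have 1 probe set each, so the rules for probe sets did not alter them either. Of the alternatives, 3 were added after the data were seen: choosing the probe set by its higher array, filtering in both arrays, and leaving out Slc7a6os and Slc4a1ap.

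The filter moved the counts most. With the filter at the 25th percentile, at the 75th, and left off, the genes kept numbered 176, 42 and 223, those lower 124, 31 and 130, and those at least 1.5-fold lower 9, 1 and 9. Of genes of all kinds kept in these ways, 55.6%, 47.3% and 49.7% were lower. The shares of all genes past 1.5-fold or 2-fold under the alternatives are not given here, so those counts have no background beside them. At least 1.5-fold higher were 4 genes with the 25th percentile filter and 4 without one, and at least 2-fold lower were 3 and 3. With the spiked controls 7 were at least 1.5-fold lower, and with a pseudocount in place of the floor 2. With quantile normalization, median scaling or the lowess correction 3 were, because Slc7a8 came inside 1.5-fold. Medians moved with the filter at the 75th percentile to -0.057 for inorganic ions, -0.059 for mitochondrial carriers, -0.070 for sugars and carboxylates and -0.18 for nucleosides, vitamins, lipids and organic ions. That last median was also -0.18 with the 25th percentile filter or with the mean over probe sets, and the inorganic ion median was -0.048 with no filter. The filters changed which genes are counted. The mean over probe sets kept the same 110 genes and changed the values of those with several probe sets. The cause of these moves was not tested further.

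The median of the solute carriers minus that of all genes above the filter was -0.09 as deposited and between -0.10 (75th percentile) and -0.06 (no filter) in the alternatives. Of 38 genes named by rule, 13 changed sign in at least 1 alternative, and Slc2a3 and Slc6a6 moved by more than the SD of 1 probe set, to -0.35 and -0.15 with the mean over probe sets. No paired analysis was possible because each condition has 1 array.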

Other observations

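Among the 113 solute carrier genes below the filter in both arrays, 3 (2.65%) read at least 2-fold lower in co-culture, against 1.95% of all 4043 genes below it. Slc37a1 read 167 and 45.995 (-1.86), Slc19a1, the reduced folate carrier, 101 and 17.3 (-1.34 after the floor) and Slc2a5, the fructose carrier, 131 and 63.8 (-1.03). The 3 (2.65%) that read at least 1.5-fold higher, against 3.36% of all genes below the filter, were Slc34a1 (56.5 and 99.6, 0.82), Slc46a1 (15.96 and 66.9, 0.76 after the floor) and Slc38a3 (23.99 and 63.6, 0.68 after the floor). These intensities lie below the array medians, and the genes were named after their values were seen.

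For Slc25a51, a mitochondrial NAD carrier, the platform annotation lists 2 gene identifiers on each of 2 probe sets, which kept it out of the symbol rule. They read 989 and 787 (-0.33) and 454 and 330 (-0.46), both lower in co-culture.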
